A study of Mus musculus with 6 samples.

Results

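The genes examined here encode the machinery of fatty acid oxidation in reporter-labelled cells sorted from the mouse subventricular zone, a region beside the lateral ventricles where neurons are made throughout life. A list of 33 gene symbols defined the set, and all 33 were found by name among the 55487 rows of the deposited table. No threshold on measured values set the list, but it was chosen with earlier results of these data known. All 33 passed the filter for testing, a mean of at least 10 normalized reads over the 6 libraries, which left 18227 rows in all. RNA was sequenced from sorted cells of 2 genotypes with 3 libraries each, labelled A, B and C. The heterozygous group lacked a single E2f1 copy and held a single floxed E2f3 copy, E2F1(+/-);E2F3(F/+), and the knockout group was E2F1(-/-);E2F3(F/F). Mice of both groups carried NestinCreERT2, a tamoxifen-inducible Cre driven by the Nestin promoter of neural stem cells, and the R26;EYFP reporter, on a mixed C57BL/6;Sv/129;FVB/N background. At 6 to 10 weeks of age both groups were gavaged with tamoxifen at 200 mg/kg per day for 5 days, and tissue was taken 10 days after the last gavage. Several mice were pooled per library to reach at least 200000 reporter-positive cells. The control group is therefore itself heterozygous for E2f1, can recombine 1 E2f3 allele and was exposed to tamoxifen, and the loss of E2f1 cannot be told apart from that of E2f3. The series title concerns activator E2F factors and the quiescent and activated states of neural stem cells.

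Fatty acids are burned in a fixed sequence of steps. They are activated to acyl-CoA by long-chain acyl-CoA synthetases, carried into mitochondria as acylcarnitines by the carnitine shuttle, and shortened by repeated rounds of dehydrogenation, hydration, a further oxidation and thiolysis. Peroxisomes shorten very long and branched chains, and electrons taken up by the acyl-CoA dehydrogenases pass through the electron transfer flavoprotein to the respiratory chain. In the adult brain the pathway is known from astrocytes and neural stem cells, where blocking carnitine entry alters stem cell proliferation, and it is regulated by PPAR nuclear receptors and by malonyl-CoA, an intermediate of fatty acid synthesis that inhibits carnitine entry.

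Reads assigned to genes ranged from 19798675 to 25982361 per library, and members with means from 66.5 to 28865 normalized reads were all measured well above 0 in every library. E2f1 stood at 1190 ± 182 normalized reads in heterozygous and 458 ± 73.6 in knockout libraries (SD, n = 3 each), and E2f3, whose reads over the whole gene do not check recombination, at 250 ± 44.0 and 266 ± 50.1. Reads over the whole gene also do not show how much intact E2f1 transcript remained. The knockout libraries differed among themselves. Knockout A and C correlated at 0.909 over log2 values, below the 0.929, 0.913 and 0.944 of knockout C with heterozygous A, B and C. Summed normalized reads of 11 ependymal markers were 12502 to 14858 in heterozygous libraries and 76939, 47902 and 18889 in knockout A, B and C. The 10 endothelial markers summed to 5605 to 6156 and to 33761, 12485 and 4035 in the same order. Of these markers 8 ependymal and 0 endothelial ones rose (limma, adjusted p under 0.05), with 2 endothelial ones higher at an unadjusted p under 0.05. The endothelial count was 0 in edgeR, 4 in DESeq2 and 10 of 10 without knockout C. The ependymal count was 3 without knockout A and 10 without knockout C. Of all tested genes, 7.23% were called higher with all libraries, 5.00% without knockout A and 10.8% without knockout C. In DESeq2, 2318 of 31667 rows were called higher. Those are all rows with a read, also those below the filter, which all these markers passed. The share among filtered rows was not computed. The 5 mural-cell markers summed to 8401 to 17010 and to 31519, 26096 and 11838, and the 10 oligodendrocyte-lineage markers to 49504 to 71255 and to 95136, 76907 and 95609. All 11 neuroblast and all 10 cycling-cell markers were lower in knockout libraries, with sums of 73884 to 116815 against 13463 to 17241 and of 25627 to 43066 against 4107 to 7350. The series design calls the libraries biological replicates, and since each is a pool of mice, p-values measure the spread between pools. In bulk RNA, fewer cells of a type and less RNA per cell cannot be told apart.

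Among the 33 genes, 2 rose in knockout cells and none fell. Those that rose were Acaa2, which encodes the thiolase that ends each mitochondrial round, and Eci1, an enoyl-CoA isomerase needed for unsaturated chains (limma, adjusted p under 0.05). That is 6.06% of members, beside 7.23% of all tested genes called higher, and 0 members called lower, beside 8.59% of all tested genes. The number called in this set was thus near the background. With an unadjusted p under 0.05, 8 members were higher (24.2%, beside 16.9% of all tested genes) and 0 were lower. The median log2 difference of the members was 0.30 with quartiles of 0.14 and 0.58, beside a median of 0.05 with quartiles of -0.44 and 0.66 over all tested genes, and 29 of 33 values were above 0 (87.9%, beside 52.3%). Every knockout library lay above every heterozygous library for 11 members (33.3%, beside 18.5% of all tested genes), and the reverse held for 0 members (beside 20.2%). The 95% intervals of the plotted differences span 0.72 to 2.12 log2 units from end to end, so that changes of the size of the median could not be resolved for single genes.

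**Figure D1:**
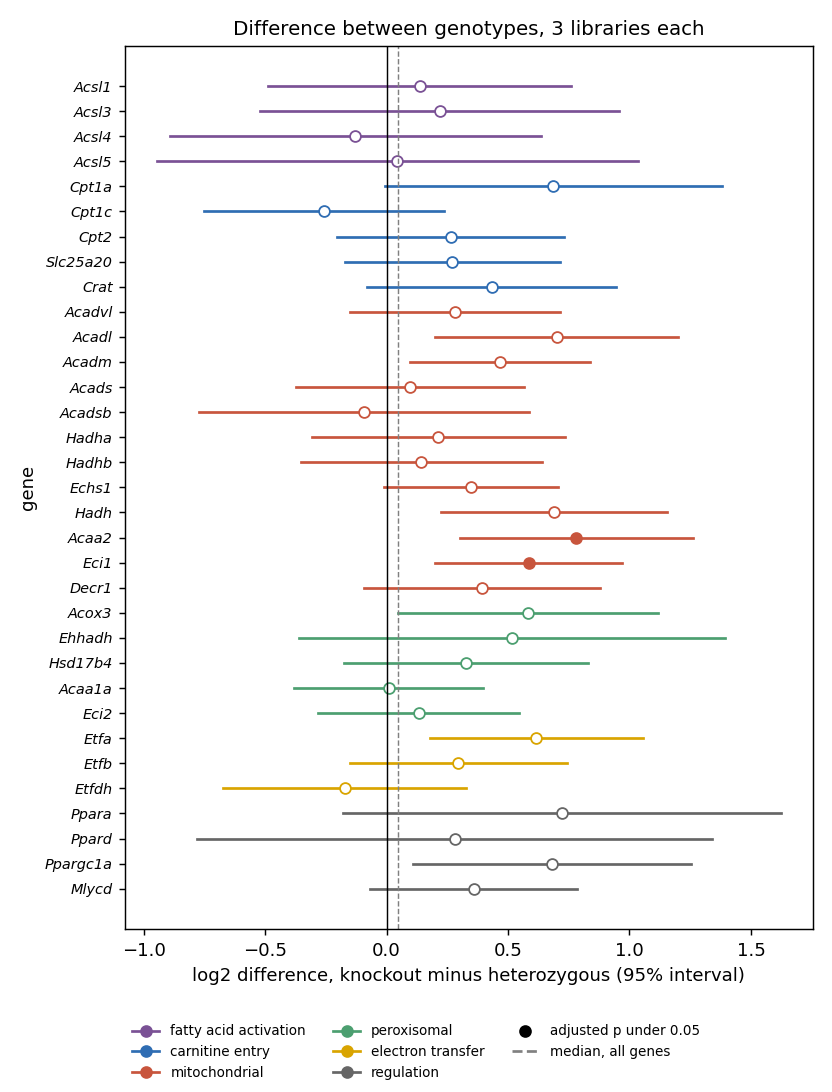
Log2 difference between knockout and heterozygous libraries (x axis, log2(value + 1) scale) for each of the 33 genes (y axis), with points for the estimate and lines for the 95% interval, coloured by step. Filled points passed the adjusted p threshold of 0.05, which only Acaa2 (0.78) and Eci1 (0.59) did, and the dashed line marks the median of all tested genes, 0.05.

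The enzymes of mitochondrial beta-oxidation held both called genes. Acaa2 (ENSMUSG00000036880, GRCm38 chromosome 18, 74779197 to 74806208, plus strand) measured 3542, 3445 and 3822 normalized reads in heterozygous A, B and C and 4695, 6341 and 7947 in knockout A, B and C. Knockout C stood highest and knockout A lowest of the knockout libraries, and the groups did not overlap. The difference was 0.78 ± 0.21 on the log2 scale (SE, a 1.72-fold increase, limma adjusted p = 0.0381). Eci1 (ENSMUSG00000024132, chromosome 17, 24426641 to 24439348, plus strand) measured 2315, 2767 and 2738 in heterozygous and 3618, 3882 and 4222 in knockout A, B and C. Its groups were also separated, with a smaller spread within the knockout libraries, and the difference was 0.59 ± 0.17 (1.5-fold, adjusted p = 0.0469). Neither call was stable to the loss of a library, and both ended with no filter on low values (adjusted p of 0.0539 for Acaa2 and 0.0771 for Eci1). Acaa2 kept its call only without knockout A (adjusted p from 0.0154 without it to 0.145 without knockout B), and Eci1 lost it whichever library was left out (adjusted p from 0.0575 to 0.177). Calls were lost over the whole table as well. Of 2883 rows called with all libraries, 631 to 2656 stayed called with 1 library left out.

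Other mitochondrial enzymes lay just outside the threshold. Hadh, the 3-hydroxyacyl-CoA dehydrogenase for shorter chains, measured 1826, 1579 and 2174 normalized reads in heterozygous and 2409, 3175 and 3427 in knockout A, B and C. Every knockout library exceeded every heterozygous one, and the difference was 0.69 ± 0.21 (adjusted p = 0.0511). Acadl, the long-chain acyl-CoA dehydrogenase, measured 2596, 2385 and 3291 against 3754, 3983 and 5852. Its groups were separated as well, at 0.70 ± 0.22 (adjusted p = 0.0601). Acadm, the medium-chain dehydrogenase, measured 2929, 3133 and 3145 against 4696, 3955 and 4102. It differed from most of this step in being highest in knockout A, and its difference was 0.47 ± 0.17 (adjusted p = 0.0825). Echs1, the short-chain enoyl-CoA hydratase, was separated with a small difference of 0.35 ± 0.16 (adjusted p = 0.162). Hadh was called without knockout A (0.84, adjusted p = 0.0334), and the authors' deposited table called Acaa2, Eci1, Acadl and Hadh of this step as higher (adjusted p of 0.00779, 0.0213, 0.0217 and 0.0278). With Etfa, that made 5 members called higher in the authors' deposited table, beside 7.44% of its 31628 rows with an adjusted p. Those rows include many below the filter that all members passed, and the share among filtered rows was not computed.

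The remaining members of the step overlapped between genotypes. Acadvl, the very-long-chain dehydrogenase, Decr1, a reductase for unsaturated chains, and Acads, the short-chain dehydrogenase, differed by 0.28, 0.39 and 0.10 on the log2 scale (adjusted p from 0.232 to 0.779). Of the exon bases of Acadvl, 42.9% also belong to exons of Dvl2 on the other strand, so part of its reads may not be separable from that gene. Acadsb, which acts on short branched chains from isoleucine breakdown, measured 2835, 2723 and 2831 in heterozygous and 1538, 3031 and 3871 in knockout A, B and C. Its heterozygous libraries lay close together, whereas knockout A was the lowest and knockout C the highest of the 6. The difference of -0.09 ± 0.30 changed sign without knockout A (0.29, adjusted p = 0.345).

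Hadha and Hadhb encode the alpha and beta subunits of the mitochondrial trifunctional protein and start head to head on chromosome 5, 86 bases apart in GENCODE M21. Hadha measured 1249, 1650 and 1265 normalized reads in heterozygous and 1230, 1607 and 2057 in knockout A, B and C. Hadhb measured 5777, 6224 and 5687 against 4917, 6511 and 8613. Both subunits were lowest in knockout A and highest in knockout C, and both overlapped between genotypes (0.21 ± 0.23 and 0.14 ± 0.22). Per kb of exon, the log2 ratio of Hadhb to Hadha was 2.5 ± 0.16 in heterozygous and 2.43 ± 0.03 in knockout libraries (SD, n = 3 each), a difference of -0.07 with an exact two-sided permutation p = 0.5, where the smallest p this design allows is 0.1. The stretch between the pair of starts is the nearest thing to a shared promoter in the set and is printed here (GRCm38.p6, chr5:30155163-30155247, plus strand), with matches to the GC box GGGCGG in capitals.
Hadha-Hadhb: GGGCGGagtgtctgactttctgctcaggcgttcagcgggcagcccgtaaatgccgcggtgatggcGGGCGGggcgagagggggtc

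Promoter sequence is also shown for Eci1, Hadh, Etfa and Acadl, the members with the smallest p that had a RefSeq window, and for Cpt1a, which was chosen as the gene of the rate-limiting step and not for its p. RefSeq windows of 300 bases on GRCm38.p6, 250 before to 50 after each start, matched 29 of the 33 members in 30 windows. The stretches printed are those before the start that lie in no GENCODE exon, on the strand of the gene. They are Eci1 (chr17:24426433-24426640, plus), Hadh (chr3:131272102-131272351, minus), Acadl (chr1:66863310-66863559, minus), Etfa (chr9:55512244-55512493, minus) and Cpt1a (chr19:3323051-3323284, plus). Capitals mark GGGCGG or its reverse complement, the GC box bound by Sp1-family factors, and AGGTCA or its reverse complement, the hexamer that nuclear receptors such as PPARs recognise.
Eci1: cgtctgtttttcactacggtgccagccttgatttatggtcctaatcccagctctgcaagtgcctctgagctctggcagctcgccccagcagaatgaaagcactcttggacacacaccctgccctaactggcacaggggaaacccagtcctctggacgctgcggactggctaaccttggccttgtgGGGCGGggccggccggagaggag
Hadh: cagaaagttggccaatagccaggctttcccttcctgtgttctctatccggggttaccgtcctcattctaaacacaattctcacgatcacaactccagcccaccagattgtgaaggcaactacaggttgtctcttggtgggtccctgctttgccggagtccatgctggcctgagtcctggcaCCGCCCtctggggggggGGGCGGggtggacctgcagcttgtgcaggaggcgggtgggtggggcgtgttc
Acadl: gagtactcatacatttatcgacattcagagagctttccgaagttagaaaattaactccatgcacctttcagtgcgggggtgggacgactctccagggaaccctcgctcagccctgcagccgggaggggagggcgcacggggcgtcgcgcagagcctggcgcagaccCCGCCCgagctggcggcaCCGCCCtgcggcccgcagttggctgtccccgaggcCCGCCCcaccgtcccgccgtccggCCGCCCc
Etfa: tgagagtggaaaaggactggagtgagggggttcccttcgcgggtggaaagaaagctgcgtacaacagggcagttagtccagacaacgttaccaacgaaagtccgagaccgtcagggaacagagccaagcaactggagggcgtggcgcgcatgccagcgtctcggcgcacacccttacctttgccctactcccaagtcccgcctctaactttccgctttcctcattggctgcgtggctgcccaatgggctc
Cpt1a: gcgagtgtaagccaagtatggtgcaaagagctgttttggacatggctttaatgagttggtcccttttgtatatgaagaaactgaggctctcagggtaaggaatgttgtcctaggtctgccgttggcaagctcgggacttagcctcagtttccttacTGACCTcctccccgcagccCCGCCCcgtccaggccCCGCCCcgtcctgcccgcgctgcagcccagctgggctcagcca
The stretch before Acadl holds 4 GC boxes, that before Hadh and that before Cpt1a 2 each, that before Eci1 1, and that before Etfa 0. Over the full windows on both strands, GGGCGG was present in 23 of 30 member windows (76.7%), beside 35.7% of all 32851 windows and 46.2% of the 21262 that belong to protein-coding genes. No share was computed for genes that passed the filter, as all members did, and GGGCGG and AGGTCA were added after the data were seen. AGGTCA was present in 5 (16.7%, beside 16.3%), those of Acadm, Acadvl, Echs1, Cpt1a and Cpt1c, and begins 94 bases before the start of Cpt1a. The tandem repeat of AGGTCA, any 1 base and AGGTCA, bound by PPAR with RXR, the estrogen-related receptor motif TCAAGGTCA and the E2F motifs TTTCCCGC and TTTGGCGC were in none of the member windows, beside 0.0396%, 0.423%, 1.07% and 0.514% of all windows. AGGTCA is contained in the tandem repeat and in TCAAGGTCA, and the absence of a match says only that these letters are not in these windows.

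Carnitine entry had no called gene and a median log2 difference of 0.27 over its 5 members. Cpt1a encodes the liver-type carnitine palmitoyltransferase on the outer mitochondrial membrane, the rate-limiting and malonyl-CoA-sensitive step. It measured 2693, 1951 and 2519 normalized reads in heterozygous and 2271, 4400 and 5531 in knockout A, B and C. Knockout B and C lay above all heterozygous libraries and knockout A within their range, which gave a difference of 0.69 ± 0.31 (adjusted p = 0.153) and of 1.06 without knockout A, where it was called (adjusted p = 0.0184). Cpt1c, the brain form that resides in the endoplasmic reticulum and has little transferase activity, measured 2423, 2784 and 2005 against 1591, 1985 and 2503, an overlapping difference of -0.26 ± 0.22 (adjusted p = 0.439). The inner-membrane transferase gene Cpt2, the acylcarnitine carrier gene Slc25a20 and the carnitine acetyltransferase gene Crat had differences of 0.26, 0.27 and 0.43, each with overlap between groups. Knockout A was the lowest and knockout C the highest knockout library for all 5 genes of this step.

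Among the steps of the members, fatty acid activation showed the least difference between genotypes. Its median was 0.09 over the 4 synthetase genes listed, with none called. Acsl3, an endoplasmic reticulum and lipid droplet synthetase, was the most abundant member per exon length and measured 23230, 23636 and 30406 normalized reads in heterozygous and 17334, 34037 and 44549 in knockout A, B and C. Knockout A was the lowest and knockout C the highest of all 6 libraries, and the difference was 0.22 ± 0.33 (adjusted p = 0.675) and 0.61 without knockout A. Acsl1, the main synthetase of liver and fat, Acsl4, which prefers arachidonic acid, and Acsl5, a mitochondrial synthetase, had heterozygous means of 395, 224 and 309 normalized reads. Their log2 differences were 0.14, -0.13 and 0.04. Acsl5 went against Acsl3 among the knockout libraries, with 649, 249 and 186 in A, B and C. Acsl5 fell from knockout A to C, as did the mean log2 levels of endothelial, ependymal and microglial markers, whose part in its value was not tested. Its difference without knockout A was -0.48 (adjusted p = 0.355).

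The electron transfer step was split between its genes. Etfa, the alpha subunit of the electron transfer flavoprotein, measured 4026, 5081 and 3823 normalized reads in heterozygous and 7339, 6947 and 5532 in knockout A, B and C. The groups were separated with knockout A highest, at 0.62 ± 0.19 (1.53-fold, adjusted p = 0.0588). It was called without knockout C (0.74, adjusted p = 0.0297) and in the authors' deposited table (adjusted p = 0.0364). Etfb, the beta subunit, measured 526, 555 and 640 against 725, 675 and 705, also separated, at 0.30 ± 0.20 (adjusted p = 0.326). For Etfb, 53% of exon bases are shared with Gm45233 on the same strand, which limits what its reads can show. Etfdh, the dehydrogenase that passes the electrons to ubiquinone, measured 2968, 3278 and 2421 against 1910, 2916 and 2954, with overlap and a difference of -0.17 ± 0.22 (adjusted p = 0.62).

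The peroxisomal members had 5 of 5 log2 differences above 0, a median of 0.33 and no call. Acox3, an acyl-CoA oxidase for branched chains, measured 658, 445 and 708 normalized reads in heterozygous and 899, 781 and 992 in knockout A, B and C. It was the one gene of this step with separated groups, at 0.58 ± 0.24 (adjusted p = 0.121). Ehhadh, the bifunctional enzyme of the PPAR-alpha-inducible branch, measured 212, 141 and 239 against 170, 276 and 447, and Hsd17b4, the bifunctional enzyme for branched and very long chains, had means of 3715 ± 356 and 4767 ± 1334. These overlapped, with differences of 0.52 ± 0.39 and 0.33 ± 0.22. The thiolase gene Acaa1a, with means of 2516 ± 217 and 2533 ± 243, showed a difference of 0.01 and a 95% interval of -0.38 to 0.40. Its reads may be shared with the near-identical gene Acaa1b. Eci2, an isomerase of peroxisomes and mitochondria, had a difference of 0.13 ± 0.18, beside the 0.59 of Eci1.

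Among regulators, all 4 log2 differences were above 0 and none was called. Ppargc1a encodes PGC-1-alpha, a coactivator of oxidative metabolism. It measured 1356, 829 and 1377 normalized reads in heterozygous and 1486, 1888 and 2277 in knockout A, B and C, separated at 0.68 ± 0.26 (adjusted p = 0.096). Ppara, the nuclear receptor that drives oxidation genes in liver, was low, with 140, 95 and 92 against 105, 212 and 249, and overlapped (0.72 ± 0.40, adjusted p = 0.236). Ppard, its widely expressed relative, was the least abundant member, with 57.5, 41.2 and 78.0 against 114, 52.5 and 55.7 (0.28 ± 0.47). Mlycd, which removes the inhibitor malonyl-CoA, measured 919, 790 and 885 against 1097, 998 and 1239. Its groups were separated by a small difference of 0.36 ± 0.19 (adjusted p = 0.214).

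**Figure D2:**
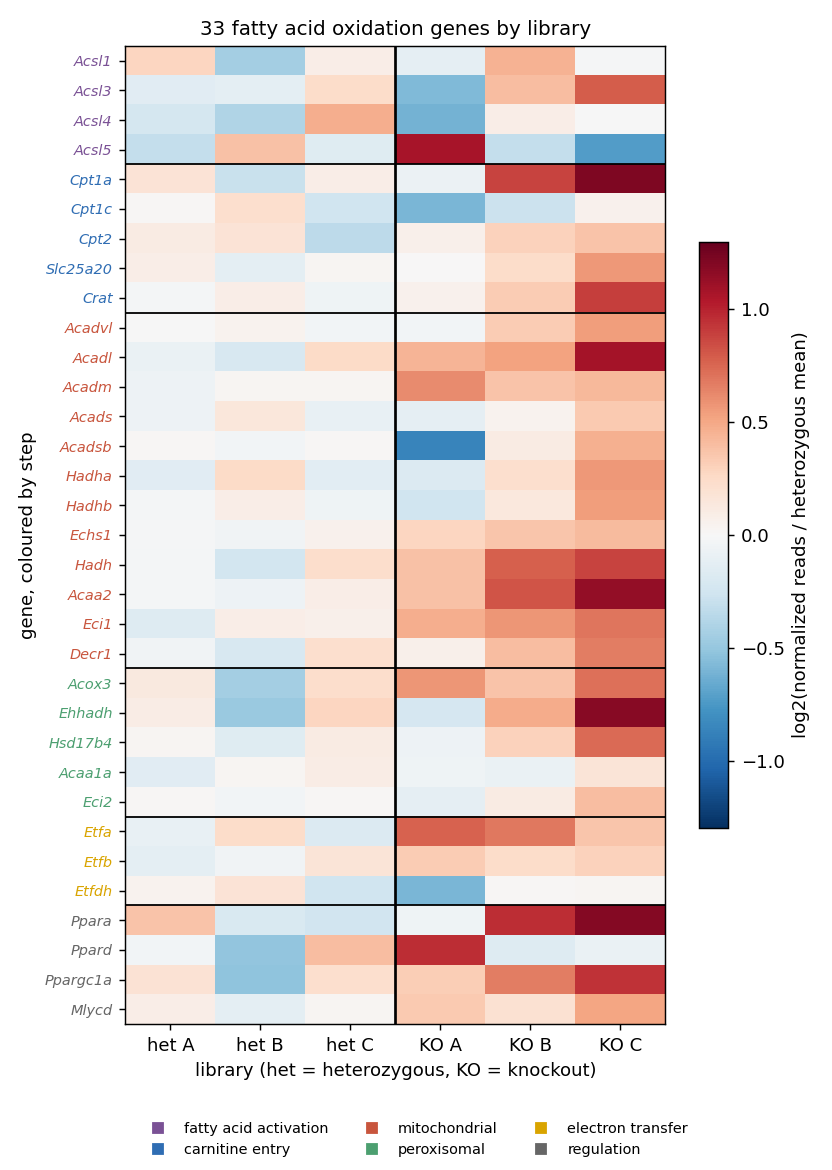
Heat map of the 33 genes (rows, coloured by step) in the 6 libraries (columns), shaded by log2 of the normalized reads over the heterozygous mean. Most rows deepen from knockout A to knockout C, and Acadm, Etfa, Etfb, Acsl5 and Ppard are highest in knockout A.

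The knockout libraries were not alike for this pathway. Knockout C was the highest knockout library for 26 of 33 members (78.8%, beside 42.6% of all tested genes) and knockout A the lowest for 25 (75.8%, beside 40.8%), and the order from A over B to C held for 23 (69.7%, beside 30.6%). This order was not particular to the members. It held for 75% of fatty acid synthesis genes, 60% of other oxidation enzymes and carriers and 60% of ketone body enzymes. For quiescent stem cell and astrocyte markers it was 53.3%, and for other regulators 31.6%. The mean log2 level of the 33 genes relative to the heterozygous mean was 0.01, -0.07 and 0.06 in heterozygous A, B and C and 0.09, 0.33 and 0.54 in knockout A, B and C. By step, knockout A ranged from -0.10 for carnitine entry to 0.42 for regulation, and knockout C from 0.04 for activation to 0.67 for regulation. Ependymal markers ran the other way, with 2.46, 1.86 and 0.42 in knockout A, B and C, as did endothelial markers with 2.54, 1.15 and -0.44. Microglial markers were at 1.96, -0.50 and -0.78 in knockout A, B and C and at -1.03, -0.13 and 1.16 in heterozygous A, B and C, a wide spread in both groups. The 15 markers of quiescent stem cells and astrocytes had 0.37, 0.82 and 0.85 in the knockout libraries and -0.10, -0.21 and 0.31 in the heterozygous ones, and 2 of the 15, Gfap and Id3, rose (13.3%, beside 7.23% of all tested genes). All 15 differences of this list were above 0, with a median of 0.65, and 8 of the 15 were separated (53.3%, beside 18.5%). The count was 6 without knockout A (beside 5.00% of all tested genes higher) and 3 without knockout C (beside 10.8%). It was 2 in edgeR, 2 with no filter on low values and 8 in DESeq2 (beside 2318 of 31667 rows higher, which include rows below the filter). The summed reads of these 15 markers ranged from 508256 to 713562 in heterozygous and from 701128 to 1037669 in knockout libraries. No marker of these lists was at 0 in any library, and their part in the values of the oxidation genes was not tested. Without knockout A the members called were Cpt1a, Hadh and Acaa2 (3 of 33, beside 5.00% of all tested genes higher) and the median log2 difference was 0.40. Without knockout C only Etfa was called (1 of 33, beside 10.8% of all tested genes higher) and the median was 0.20. Leaving out any heterozygous library, or knockout B, left no member called. In those fits, 323, 166, 952 and 111 of all 18227 tested genes were called higher, without heterozygous A, B and C and knockout B. With all libraries, 1318 were called higher.

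**Figure D3:**
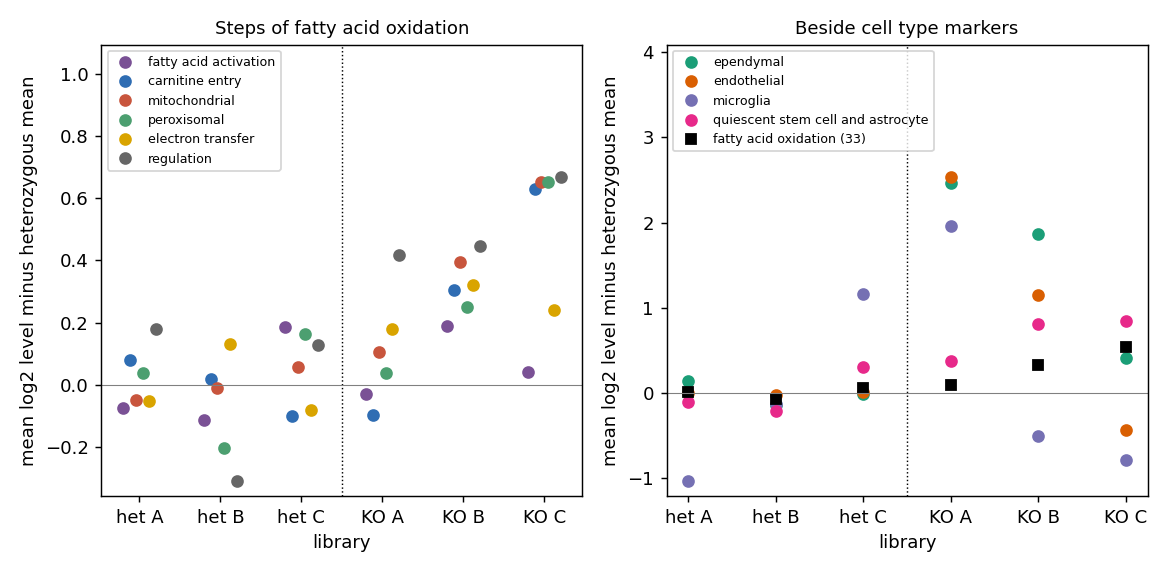
Mean log2 level relative to the heterozygous mean (y axes) in each library (x axes), for the steps of the pathway (left) and for all 33 genes beside cell type markers (right). The 33 genes reach 0.09, 0.33 and 0.54 in knockout A, B and C. Quiescent stem cell and astrocyte markers reach 0.37, 0.82 and 0.85, and ependymal markers 2.46, 1.86 and 0.42.

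Levels between genes were compared per length of exon, the union of all annotated exons of a gene. This length varied widely, with 1516 bases for Acaa2, 1835 for Etfa, 8286 for Echs1 and 10483 for Acsl1. Where it exceeds the length of the transcript present, the level per kb is understated, so ranks and shares depend partly on annotation. On this scale Acsl3 led with 5912 normalized reads per kb in heterozygous and 7338 in knockout libraries, followed by Acaa2 (2377 and 4174), Etfa (2349 and 3600), Acadl (1375 and 2259) and Eci1 (1226 and 1837). The other synthetases among the members, Acsl1, Acsl4 and Acsl5, stood at 37.7, 41.4 and 63.4 in heterozygous libraries. Outside the members, the synthetase genes Acsbg1 and Acsl6 stood at 3382 and 941 in heterozygous and 5094 and 1349 in knockout libraries. Their log2 differences were 0.52 and 0.42, and neither was called. Acsl3 made up 23.2% to 27.8% of the summed per-kb level of the 33 genes in heterozygous libraries and 15.7%, 24.2% and 26.5% in knockout A, B and C. Acaa2 made up 9.72% to 10.3% and 12.2% to 13.6%. The 12 mitochondrial enzymes together held 40.6% to 41.0% in heterozygous and 42.9% to 45.8% in knockout libraries, and the 4 regulators 1.81% to 2.46% and 2.12% to 2.51%.

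**Figure D4:**
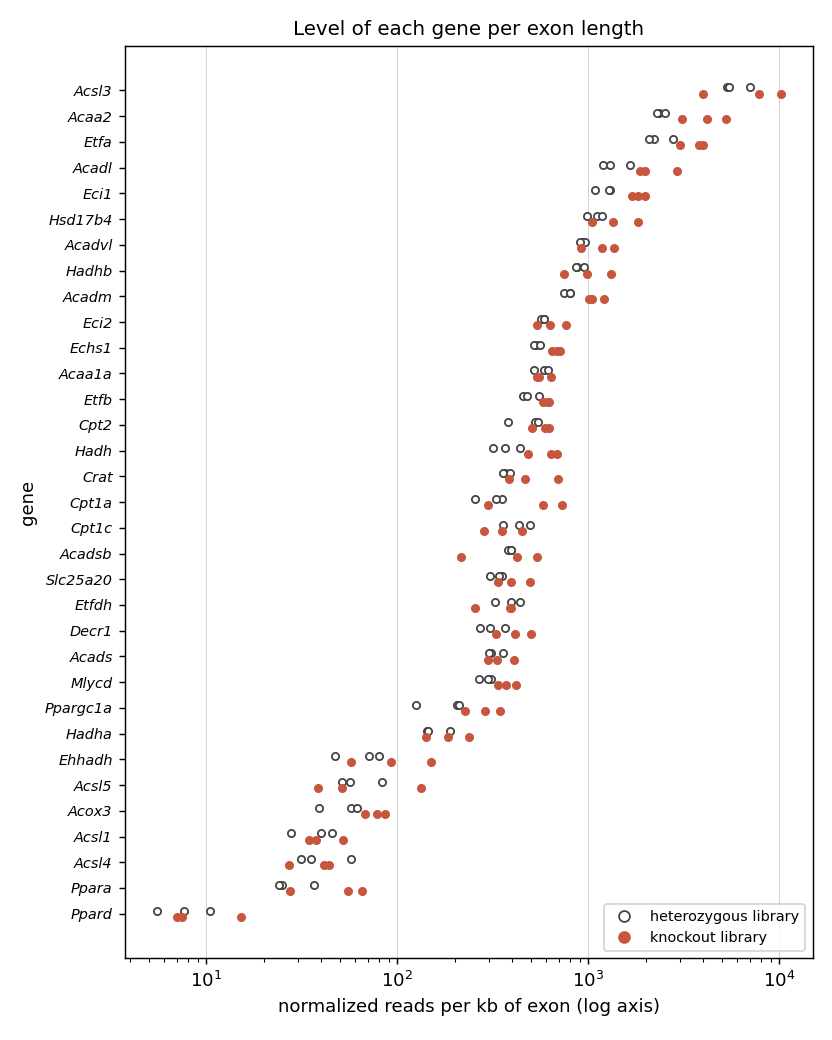
Normalized reads per kb of exon (x axis, log scale) for the 33 genes (y axis, ordered by mean), with open circles for heterozygous and filled circles for knockout libraries. Acsl3 lies at the top (5912 and 7338 on average) and Ppard at the bottom (7.84 and 9.86).

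Other genes of the pathway were read from 4 lists, with 13 calls in all. Only Echdc3 and Scd1 of these 13 stayed called whichever library was left out, and 11 calls were lost without heterozygous B and 11 without knockout B. Of the 2883 rows called over the whole table, 631 and 697 stayed called without these libraries. With no filter on low values, Bdh1, Fads3, Phyh and Slc25a17 lost their calls. Of 47 other enzymes and carriers 45 were tested, and 3 rose and 1 fell (6.67% higher, beside 7.23% of all tested genes), with a median of 0.42. The count was 8 higher and 0 lower without knockout A, 5 and 1 without knockout C, and 10 and 1 in DESeq2. Over the whole table, 5.00% of tested genes were called higher without knockout A and 10.8% without knockout C. In DESeq2 it was 2318 of 31667 rows, which include rows below the filter. Echdc3, an enoyl-CoA hydratase-domain gene, measured 89.8, 64.7 and 89.0 in heterozygous and 627, 407 and 282 in knockout A, B and C, a 5.14-fold increase (2.36 ± 0.36, adjusted p = 0.00423). Echdc3 fell from knockout A to C, as did the mean log2 levels of ependymal, endothelial and microglial markers, whose part in it was not tested. Acsf2, an acyl-CoA synthetase family member, rose from 668 ± 209 to 2045 ± 969 (1.55 ± 0.36, adjusted p = 0.0227), and Phyh, the peroxisomal enzyme that starts alpha-oxidation of phytanic acid, from 2532 ± 154 to 3952 ± 236 (0.64 ± 0.16, adjusted p = 0.0308). Slc25a17, a peroxisomal cofactor carrier, fell from 3967 ± 807 to 2397 ± 132 (-0.71 ± 0.19, adjusted p = 0.037). The muscle form Cpt1b and the fatty acid transporter gene Cd36 were below the filter, with at most 3.29 and 27.4 normalized reads in any library. For Cpt1b, 81.4% of exon bases are shared with Gm44502 on the same strand, which limits what its low value can show.

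Of 5 ketone body enzymes 1 rose (20%, beside 7.23% of all tested genes), Bdh1, which interconverts the main ketone bodies (from 1391 ± 240 to 2326 ± 410, adjusted p = 0.0434). The count was 2 of 5 without knockout A (beside 5.00%) and 1 of 5 without knockout C (beside 10.8%). Of 19 other regulators 3 rose (15.8%, beside 7.23%) and 1 fell (5.26%, beside 8.59%). The count was 4 and 0 without knockout A (beside 5.00% of all tested genes higher) and 3 and 1 without knockout C (beside 10.8% higher). Rxra, the dimer partner of PPARs, rose from 509 ± 132 to 1261 ± 317 (1.31 ± 0.28, adjusted p = 0.0163). Ucp2, a mitochondrial carrier, rose from 734 ± 252 to 1949 ± 752 (adjusted p = 0.0228) and Acacb, which makes malonyl-CoA at mitochondria, from 114 ± 21.7 to 265 ± 51.9 (adjusted p = 0.0314), both highest in knockout A. Nrf1, a transcription factor of mitochondrial genes, fell from 2584 ± 419 to 1486 ± 198 (adjusted p = 0.0282). Pdk4, a PPAR-responsive kinase that limits glucose oxidation, was separated between groups at 0.81 ± 0.25 (adjusted p = 0.0583).

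Of 20 genes of fatty acid synthesis, the opposing pathway, 3 rose (15%, beside 7.23% of all tested genes) and 1 fell (5%, beside 8.59%), with a median of 0.42. The count was 7 higher and 1 lower without knockout A (beside 5.00% of all tested genes higher) but 1 higher and 3 lower without knockout C (beside 10.8% higher). Those that rose were the desaturase gene Scd1 (1.37 ± 0.23, adjusted p = 0.00722), the lipogenic transcription factor gene Srebf1 (0.88 ± 0.23, adjusted p = 0.0339) and Fads3 (0.87 ± 0.24, adjusted p = 0.0416), and the elongase gene Elovl4 fell (-1.32 ± 0.32, adjusted p = 0.0254). Knockout C was the highest knockout library for 18 of the 20, beside 26 of 33 oxidation genes. Synthesis genes had 65% of differences above 0, beside 87.9% in oxidation, and a difference between the lists was not tested.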

How the data were processed

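RNA of sorted subventricular zone cells (at least 35 ng per sample) was made into SMART-Seq v4 and Nextera XT libraries, per the labels' protocols. HISAT2, featureCounts from Subread, DESeq2 and GRCm38 are named without versions in the submitters' processing notes. The deposited values per library are a normalized signal, read counts that the authors divided by 1 size factor per library; all values above 0 were whole multiples of 1 step (100% within 0.001 reads). The deposited log2 fold change with its standard error, the test statistic and weight (scores), and the p-value and adjusted p-value are the authors' own.

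Genotypes were compared with limma 3.58.1 (R 4.3.3, mean-variance trend, two-sided, Benjamini-Hochberg over 18227 rows) on log2(value + 1); a fold change on this scale understates changes of low genes. Recovered reads were tested with edgeR 4.0.16, which called 2885 rows against 2883 by limma, 2677 of them shared, and with DESeq2 1.42.0. The unit of the table, normalized rather than raw counts, fixed limma as the main test. Exon lengths came from GENCODE M21 on GRCm38, promoters from RefSeq. Methods were tested on simulated data. Libraries of a genotype differed beyond counting noise (the lowest chi-square divided by its degrees of freedom was 46.9). Named genes were all members, with full values for those called and for the smallest p of each step, and called genes of the other lists; genes beyond that rule, and the motifs GGGCGG and AGGTCA, were added after their values were seen. Members and lists were chosen with earlier results of these data known. Alternatives covered pseudocount, filter, test, scaling, threshold, omission of each library and a replicate block.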

Additional observations from a re-analysis of the deposited data

How the results depend on the processing

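Both the calls and the sign of some differences depended on the setting. Against 2 members called higher, the count was 5 with a minimum mean of 50, 6 with upper-quartile scaling in edgeR, 5 in DESeq2, 5 in the authors' deposited table and 7 at an adjusted p under 0.10. It was 0 with no filter on low values and 0 with the replicate block. It ranged from 0 to 3 with 1 library left out. Over the whole table, 1318 rows were called higher, and 1460 of 14135 with a minimum mean of 50. The table-wide count was 1526 with upper-quartile scaling and 2348 at an adjusted p under 0.10. It was 2318 of 31667 in DESeq2 and 2354 of 31628 in the authors' deposited table, where the rows include those below the filter. With no filter it was 1043, and with the replicate block 1105. No member was called lower under any of these settings. Over all genes 2883 rows were called, 4452 in DESeq2, 4514 in the authors' deposited table, 4757 at an adjusted p under 0.10, and 636 to 4021 with 1 library left out. Upper-quartile scaling moved the median of all tested rows from 0.05 to 0.14, and the balance of calls from 1318 higher and 1565 lower to 1526 and 1385. The shared letters A, B and C were not treated as pairing: same-letter deviations correlated at -0.072, 0.021 and -0.103, and the replicate block called 2310 rows. Under the block the adjusted p was 0.0579 for Acaa2 and 0.117 for Eci1, and of the 13 calls in other pathway lists 6 passed the threshold no longer, those of Acacb (0.0524), Bdh1 (0.0892), Fads3 (0.0556), Nrf1 (0.0671), Phyh (0.0924) and Slc25a17 (0.0819). The median member difference ranged from 0.20 to 0.40 with 1 library left out. Members that changed sign were not called. Acadsb was -0.09, and 0.033, 0.085, 0.0088 and 0.0088 in edgeR with TMM, edgeR with upper-quartile scaling, DESeq2 and the authors' deposited table. With 1 library left out, Acadsb ranged from -0.37 to 0.29, Acaa1a from -0.068 to 0.062, Acsl5 from -0.48 to 0.41, Acsl1 from -0.067 to 0.29, Acsl4 from -0.30 to 0.13, Etfdh from -0.29 to 0.034, Ppard from -0.074 to 0.50, Acads from -0.029 to 0.20, Hadhb from -0.058 to 0.35 and Acsl3 from -0.073 to 0.61. The cause of these changes was not tested. All members had reads in every library, and the number of libraries limits the precision.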

Other observations

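Ratios of related genes within a library do not depend on the scale of that library. Which gene of a pair stands higher per kb depends on the annotated exon lengths. The difference of a pair's log2 ratio between genotypes does not. For Acsl3 over Acsl1, Acsl4 and Acsl5 together it does, since exon lengths weight the summed genes. The ratios were chosen after the values were seen, 6 in all, and 3 of them were separated between genotypes. An exact two-sided permutation test of 3 against 3 libraries cannot go below 0.1. Of all tested single genes, 18.5% were separated with knockout libraries above and 20.2% with them below. No such share was computed for ratios. Since the choice followed the values, no conclusion is drawn from the count or the p-values. Per kb of exon, Cpt1a stood below Cpt1c in heterozygous A, B and C (ratios of 0.815, 0.514 and 0.921) and above it in knockout A, B and C (1.05, 1.63 and 1.62), a log2 difference of 0.95 (p = 0.1, exact). Knockout A is included in that separation, although Cpt1a itself lay within the heterozygous range there. Eci1 over Eci2 was 1.86, 2.30 and 2.19 in heterozygous and 3.18, 2.91 and 2.61 in knockout libraries (0.45, exact p = 0.1). Etfa over Etfdh was 5.55, 6.34 and 6.46 against 15.7, 9.74 and 7.66 (0.79, exact p = 0.1), with knockout A farthest from the heterozygous libraries. The ratios of Acsl3 to Acsl1, Acsl4 and Acsl5 together, of Hadhb to Hadha and of Etfa to Etfb overlapped (exact p of 0.8, 0.5 and 0.2). With 6 ratios tested, the Benjamini-Hochberg adjusted p of the separated ratios was 0.2.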
